A study of Mus musculus with 36 samples.

Results

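Genes that mark fat cells, 10 of the 14702 in the deposited table, were followed in the quadriceps of mice after partial removal of the liver. They were taken by symbol: the secreted products Adipoq, Lep, Retn and Cfd, the receptors Adrb3 and Hcar1, the lipid-handling proteins Plin1 and Fabp4, the transcription factor Pparg and the imprinted gene Nnat. All 10 were in the table, and all 10 passed the filter on low counts that left 13601 genes to test. Total RNA was sequenced from the quadriceps of male C57BL6/J mice aged 12 to 14 weeks. There were 5 libraries at each of days 1, 3 and 7 after partial hepatectomy (PHx, resection of 70% of the liver), and 3 libraries from sham-operated mice, whose abdomen was opened without resection. All groups share strain, sex and age range, and no transgene or drug is named. The days come from the sample titles, since another label field names day 3 for every sample, and the day on which the sham mice were sampled is not given. The series title ties hepatic Yap1 to catabolism and loss of muscle. A liver library was made for each group too, 18 of the 36 libraries in all.

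White adipocytes store triglyceride in a single droplet coated by perilipin and release fatty acids when catecholamines act on the beta 3 adrenergic receptor. They also secrete hormones, among them adiponectin and leptin, whose transcription depends on PPAR gamma and C/EBP factors. In skeletal muscle such cells lie between the bundles of fibres and along vessels, so a whole-muscle RNA sample holds their transcripts beside a far larger amount of fibre RNA.

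The 18 quadriceps libraries held 15506197 to 29623890 counted reads. All 15 genes of a fixed list of muscle fibre markers were measured, and their summed level was 307645 to 397641 CPM (counts per 1000000 counted reads of the library) at day 1, 176582 to 266378 CPM at day 3, 307165 to 375317 CPM at day 7 and 331783 to 390130 CPM in sham. Fibre RNA was thus abundant in every library, but every day 3 library lay below every library of the other groups. The fat cell genes varied widely within groups. Sham replicate 3 was the highest sham library for all 10 genes, with 345 CPM of Adipoq against 63.5 and 97.1 CPM in the other sham libraries. Day 7 replicate 4, with 268 CPM of Adipoq, was the highest day 7 library for all 10. Changes of the 10 genes and the counts of the gene lists were also computed without sham replicate 3, and changes of the 10 genes without day 7 replicate 4.

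On the mouse build GRCm38 (mm10) and the GENCODE M21 annotation, the genes lie apart from each other except for a pair on chromosome 6 and a pair on chromosome 8, each pair far apart. Adipoq lies at chr16:23146536-23158028 on the plus strand, Lep at chr6:29060220-29073877 on the plus strand, Retn at chr8:3655770-3660110 on the plus strand and Cfd at chr10:79890853-79892655 on the plus strand. Adrb3 lies at chr8:27225776-27250616 and Hcar1 at chr5:123876736-123880020, both on the minus strand. Plin1 lies at chr7:79720218-79732903 and Fabp4 at chr3:10204088-10208576, both on the minus strand. Pparg lies at chr6:115360951-115490399 and Nnat at chr2:157560078-157562522, both on the plus strand. The counts are sums over each whole gene. The exons of Adrb3 share 839 bases with the antisense gene Gm45470, and those of Nnat share 87 bases with Gm23134. Nnat also lies inside the span of Blcap on the other strand. Whether counting used strand is not stated, so the levels of Adrb3 and Nnat are uncertain. The gene models counted also differ from these. The length deposited with the counts is 2795 bases for Adrb3, against 3376 exon bases here, and 1336 for Nnat, against 1829. How many bases overlap in the counted models is thus not known.

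Promoter windows of 250 bases before to 50 bases after a listed start were found for 8 of the 10 genes in RefSeq (GRCm38.p6), all but Adrb3 and Fabp4. Because the genes moved together, the windows were searched on both strands for TTNNGCAA, a core of sites read by C/EBP factors, for TATAAA and for 2 copies of AGGNCA with 1 base between them, a direct repeat of the kind read by PPAR gamma with RXR. The 8 genes have 10 windows, of which Pparg has 3. The first motif was found in 3 of the 10 windows, 1 each of Lep, Plin1 and Pparg, against 10.8% of 32817 promoter windows, TATAAA in 1 of 10 against 13.6%, and the repeat in 0 of 10 against 0.381%. Shown here are the 3 windows that hold TTNNGCAA, with each match in capitals, and that of Adipoq, which holds none of the 3 motifs. The match in the Lep window starts at position -55 from the start and reads the same on both strands. Those in the Plin1 window start at positions -187 and -58, and those in the window of the most downstream listed Pparg start at -215 and -16.
Lep, chr6:29059971-29060270, plus strand: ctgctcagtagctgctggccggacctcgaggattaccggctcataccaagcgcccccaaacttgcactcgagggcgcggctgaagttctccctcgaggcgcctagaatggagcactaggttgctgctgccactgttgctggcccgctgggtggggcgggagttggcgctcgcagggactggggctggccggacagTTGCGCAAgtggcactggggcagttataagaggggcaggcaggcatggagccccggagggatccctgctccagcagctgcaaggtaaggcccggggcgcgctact
Plin1, chr7:79732727-79733026, minus strand: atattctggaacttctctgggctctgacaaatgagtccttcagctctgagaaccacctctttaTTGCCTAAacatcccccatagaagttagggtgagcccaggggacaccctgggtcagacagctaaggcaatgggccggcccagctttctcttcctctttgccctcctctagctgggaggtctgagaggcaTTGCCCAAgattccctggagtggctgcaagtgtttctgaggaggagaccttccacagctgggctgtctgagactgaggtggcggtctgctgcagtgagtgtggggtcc
Pparg, chr6:115421816-115422115, plus strand: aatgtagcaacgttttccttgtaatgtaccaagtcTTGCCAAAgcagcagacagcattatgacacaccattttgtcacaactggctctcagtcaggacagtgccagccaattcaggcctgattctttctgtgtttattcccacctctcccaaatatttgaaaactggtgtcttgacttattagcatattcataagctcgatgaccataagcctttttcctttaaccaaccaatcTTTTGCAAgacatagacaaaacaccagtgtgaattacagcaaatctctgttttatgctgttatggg
Adipoq, chr16:23146286-23146585, plus strand: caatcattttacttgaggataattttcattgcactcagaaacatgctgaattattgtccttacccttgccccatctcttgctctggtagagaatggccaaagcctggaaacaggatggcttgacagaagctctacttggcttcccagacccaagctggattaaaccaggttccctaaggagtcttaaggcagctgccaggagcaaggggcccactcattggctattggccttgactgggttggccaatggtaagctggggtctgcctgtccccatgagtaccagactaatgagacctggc
These matches are letters in a window, and no binding was measured.

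At day 3 after PHx all 10 genes were lower than in sham (edgeR's quasi-likelihood test, Benjamini-Hochberg adjusted p under 0.05), where 22.6% of all 13601 genes tested were called lower and 24.8% higher. The median change of the 10 was -4.37 on the log2 scale, against -0.02 over all genes tested, and the range ran from -8.44 for Adrb3 to -1.72 for Fabp4. For 9 of the 10 every day 3 library lay below every sham library, which held for 21.9% of all genes. The exception was Fabp4. All 10 were also lower at day 3 with an FDR under 0.05 in the authors' deposited table, where 21.6% of its genes were. In bulk tissue, fewer fat cells in the sample and less RNA of these genes per fat cell cannot be told apart.

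**Figure D1:**
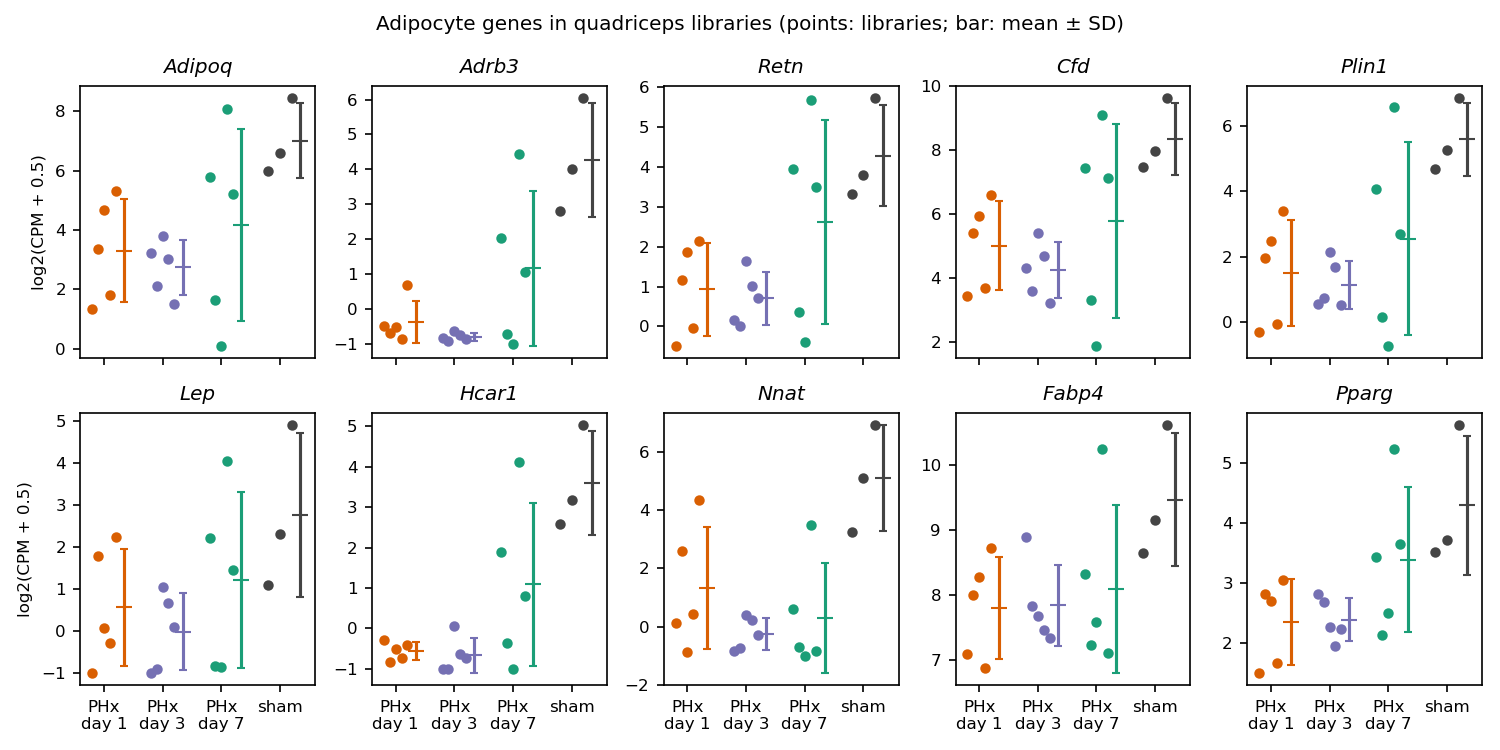
Level of each of the 10 genes in the 18 quadriceps libraries, as log2(CPM + 0.5), by group; points are libraries, bars are the mean ± SD over 5 libraries for days 1, 3 and 7 and 3 for sham. The day 3 libraries lie below all sham libraries for every gene except Fabp4, and day 7 libraries spread from the day 3 range up to the sham range.

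Among the secreted products, Adipoq encodes adiponectin, which raises insulin sensitivity in liver and muscle. It had 8.89, 3.85, 13.5, 7.58 and 2.36 CPM in the day 3 libraries, against 63.5, 97.1 and 345 CPM in the sham libraries. The highest day 3 library thus lay well under the lowest sham library. The change was -4.49 ± 1.28 (SE) on the log2 scale, with an adjusted p of 0.00896. Cfd, which encodes adipsin, the complement factor D protease, had the highest level of the 4 products and averaged 21.3 ± 13.1 CPM at day 3 (SD, n = 5) and 404 ± 332 CPM in sham (SD, n = 3). It fell by 4.19 ± 1.11 (SE; adjusted p 0.00591). Retn, the gene of the hormone resistin, averaged 1.28 ± 0.861 CPM at day 3 and 25.0 ± 23.6 CPM in sham, and fell by 4.26 ± 1.13 (SE; adjusted p 0.00588).

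Lep encodes leptin, the hormone that reports fat stores to the brain. Day 3 libraries had 0, 0.0338, 1.56, 1.08 and 0.565 CPM, against 1.62, 4.48 and 29.6 CPM in sham. The groups did not overlap, but the top day 3 library came close to the lowest sham library, and the sham libraries ranged over 18.3-fold, the most of any of the 10 genes. The library at 0 reads allows up to 0.184 CPM (3 reads). Lep fell by 4.17 ± 1.44 (SE; edgeR adjusted p 0.0246), a call lost without day 3 replicate 2 (-3.86, edgeR adjusted p 0.0536) and without sham replicate 3.

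The receptors gave larger changes. Adrb3 encodes the receptor through which noradrenaline starts lipolysis in mouse fat cells. It had 1, 1, 3, 2 and 1 reads in the day 3 libraries (0.0613, 0.0338, 0.147, 0.0941 and 0.0514 CPM), against 132, 384 and 1462 reads in the sham libraries (6.48, 15.5 and 65.0 CPM). Each day 3 library was thus within a few reads of 0. The change was -8.44 ± 1.51 (SE; edgeR adjusted p 0.000621). Hcar1, the lactate receptor that restrains lipolysis, had 0, 0, 11, 3 and 2 reads at day 3 (at most 0.538 CPM), against 112, 212 and 725 reads in sham (5.50, 8.55 and 32.2 CPM), and fell by 6.57 ± 1.29 (SE; adjusted p 0.00103). Where a library has so few reads, the fitted fold depends on the small count that edgeR adds, so its size is approximate.

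Plin1 encodes perilipin 1, which coats the fat droplet and gates lipases. It had 0.981, 1.18, 3.91, 2.68 and 0.925 CPM at day 3, against 25.4, 37.6 and 114 CPM in sham. The 2 groups were far apart, and Plin1 fell by 4.87 ± 1.33 (SE; edgeR adjusted p 0.0071). Nnat, an imprinted gene for a small membrane protein of the endoplasmic reticulum, averaged 0.392 ± 0.341 CPM at day 3 and 54.9 ± 59.1 CPM in sham, and fell by 7.09 ± 1.65 (SE; adjusted p 0.00269). Its day 3 libraries held 1 to 17 reads.

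Fabp4 and Pparg changed least. Fabp4, the fatty acid carrier of adipocytes that capillary endothelial cells and macrophages also make, had 475, 227, 203, 175 and 161 CPM at day 3, against 398, 566 and 1569.7 CPM in sham. Day 3 replicate 1 lay above sham replicate 1, so the groups overlapped. Fabp4 fell by 1.72 ± 0.651 (SE; edgeR adjusted p 0.0376), a call lost without sham replicate 3 or without any one of day 3 replicates 2, 3, 4 and 5. Pparg, the nuclear receptor that drives fat cell differentiation, had 6.56, 5.91, 4.30, 3.34 and 4.21 CPM at day 3, against 10.99, 12.7 and 49.0 CPM in sham. These groups did not overlap, and Pparg fell by 2.27 ± 0.618 (SE; adjusted p 0.00703). Fabp4 had 3143 to 7749 reads per day 3 library and Pparg had 71 to 175.

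Without sham replicate 3, 6 of the 10 genes were still called lower at day 3, where 15.9% of all genes then tested were: Adrb3 (-7.02), Nnat (-5.74), Hcar1 (-5.40), Plin1 (-3.93), Cfd (-3.24) and Retn (-3.09), as log2 changes. The other 4 kept their sign without passing the threshold. They were Adipoq (-3.39, adjusted p 0.0533), Lep (-2.19, adjusted p 0.268), Pparg (-1.20, adjusted p 0.137) and Fabp4 (-0.89, adjusted p 0.329).

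At day 1 the receptors alone passed the test: 2 of the 10 genes were called lower, Adrb3 and Hcar1, where 2.26% of all genes tested were called lower and 3.04% higher. Adrb3 had 0.213, 0.129, 0.201, 0.0522 and 1.12 CPM in the day 1 libraries, against 6.48, 15.5 and 65.0 CPM in sham, and the change was -6.16 ± 1.29 (SE; edgeR adjusted p 0.0288). Hcar1 had 0.319, 0.0645, 0.201, 0.104 and 0.255 CPM, against 5.50, 8.55 and 32.2 CPM in sham, and the change was -6.13 ± 1.27 (SE; edgeR adjusted p 0.0287). No day 1 library reached the sham range for either. Without sham replicate 3 no gene of the 13731 then tested was called at day 1. Both calls were lost without any single sham library and without day 1 replicate 2 or day 1 replicate 4, and Hcar1 also without day 1 replicate 5, with the sign kept in each case. At an unadjusted p under 0.05, 9 of the 10 were lower, where 12.6% of all genes tested were. The log2 changes of the 8 that missed the threshold ran from -3.72 for Plin1 to -1.57 for Fabp4, with adjusted p of 0.0583 to 0.211.

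Day 1 libraries spread widely. Adipoq had 2.02, 9.80, 24.8, 2.97 and 39.4 CPM, a 19.5-fold range, against 63.5, 97.1 and 345 CPM in sham. Nnat had 0.585, 5.55, 0.0503, 0.835 and 19.9 CPM, against 9.13, 34.1 and 122 CPM in sham, so its groups overlapped in 1 library, and its change was -3.10 ± 1.35 (SE; edgeR adjusted p 0.151). For 7 of the 10 genes every day 1 library lay below every sham library, where this held for 20.0% of all genes. The 3 others were Nnat, Lep and Fabp4. Of the 10, 5 were lower at day 1 with an FDR under 0.05 in the authors' deposited table, where 6.81% of its genes were: Adrb3, Hcar1, Pparg, Retn and Cfd.

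Between day 3 and day 1 none of the 10 genes passed the edgeR test, where 13.6% of all genes were higher and 12.6% lower at day 3. At an unadjusted p under 0.05 there was 1, lower at day 3, where 18.3% of all genes were, and DESeq2 called 1. Nnat came closest, with 0.392 ± 0.341 CPM at day 3 and 5.39 ± 8.43 CPM at day 1 (SD, n = 5 each; edgeR adjusted p 0.055). The mean levels of all 10 genes stood in the order sham, day 7, then days 1 and 3, except that Nnat was lower at day 7 than at day 1. The day 1 and day 3 means could not be ordered beyond their spread.

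**Figure D2:**
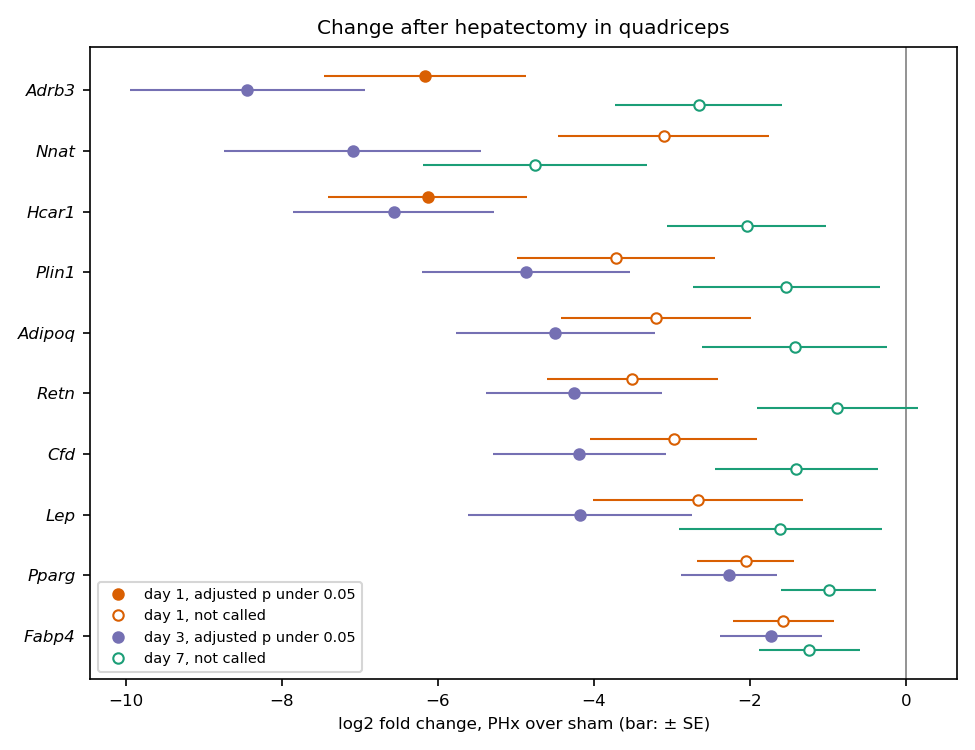
Log2 fold change of each gene in quadriceps, PHx over sham, at days 1, 3 and 7, from edgeR; bars are ± 1 SE and filled symbols have an adjusted p under 0.05. All 10 changes are called at day 3, those of Adrb3 and Hcar1 at day 1, and none at day 7.

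At day 7 none of the 10 passed the edgeR test against sham, where 0.0147% of all genes tested were called lower and 0.0441% higher. At an unadjusted p under 0.05 there were 2, Nnat and Adrb3, both lower, where 4.57% of all genes were, and DESeq2 called 0. All 10 fitted changes were below 0, from -4.75 ± 1.44 for Nnat to -0.88 ± 1.03 for Retn (SE), with adjusted p of 0.203 to 0.768. For none of the 10 did the 2 groups lie apart, which they did, with day 7 lower, for 2.52% of all genes.

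The 5 day 7 libraries covered the whole range between the day 3 and sham levels. Adipoq had 54.4, 2.65, 0.566, 268 and 36.8 CPM at day 7, against 63.5, 97.1 and 345 CPM in sham. Replicate 4 was inside the sham range, replicates 1 and 5 lay below it, and replicates 2 and 3 were as low as the day 1 and day 3 libraries or lower. Adrb3 had 3.64, 0.113, 0, 21.4 and 1.59 CPM, against 6.48, 15.5 and 65.0 CPM in sham, in the same order of libraries. Its library at 0 reads, replicate 3, allows up to 0.154 CPM (3 reads). Retn had 14.8, 0.789, 0.257, 51.1 and 10.8 CPM at day 7, against 9.57, 13.3 and 52.1 CPM in sham, so 3 of its day 7 libraries were within the sham range.

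Nnat stood apart at day 7. It had 1.01, 0.113, 0, 10.7 and 0.0512 CPM, against 9.13, 34.1 and 122 CPM in sham. In replicate 4, where each of the 9 other genes lay between the middle and the highest sham library, Nnat was just above the lowest sham library. In replicate 5 it had 1 read, beside 719 reads of Adipoq. Without day 7 replicate 4 the change in Nnat was -7.57 (edgeR adjusted p 0.0472), the only call among the 10 in any of these day 7 fits with 1 library left out. In the authors' deposited table Nnat was the only one of the 10 lower at day 7 with an FDR under 0.05 (log2 change -4.74, FDR 0.031), where 0.401% of its genes were.

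Between day 7 and day 3, 6 of the 10 genes were called higher at day 7, where 17.0% of all genes tested were called higher and 19.5% lower. Their log2 changes were 5.79 ± 1.43 for Adrb3, 4.53 ± 1.21 for Hcar1, 3.38 ± 1.04 for Retn, 3.34 ± 1.20 for Plin1, 3.07 ± 1.15 for Adipoq and 2.78 ± 0.993 for Cfd (SE), with edgeR adjusted p of 0.00611 to 0.0449. The groups overlapped, since day 7 replicates 2 and 3 were as low as day 3 libraries. Without day 7 replicate 4 only Adrb3 was still called (3.91, edgeR adjusted p 0.0302). Leaving out day 3 replicate 1, 2, 4 or 5, or day 7 replicate 1, left 3 calls each. The 4 genes not called were Lep (2.57 ± 1.31), Nnat (2.34 ± 1.48), Pparg (1.28 ± 0.557) and Fabp4 (0.49 ± 0.577), with adjusted p of 0.079 to 0.52. Between day 7 and day 1 none passed the edgeR test, where 0.566% of all genes were called higher and 1.44% lower. At an unadjusted p under 0.05 there were 3, Hcar1, Retn and Adrb3, all higher at day 7, where 12.1% of all genes were, and DESeq2 called 2.

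The 10 genes went up and down with other fat cell genes from library to library. A list of fat cell genes outside the 10, called the reference here, was used for this: Cidec, which coats and fuses droplets, Adig, Lgals12, Acvr1c, Aqp7, the glycerol channel, Mrap and Tusc5, a regulator of glucose transporter traffic. Of its 8 symbols, 7 were in the table, and Trarg1, the newer symbol of Tusc5, was not a separate entry. At day 3, 6 of the 7 were lower, where 22.6% of all genes were, with a list median of -3.66 on the log2 scale, among them Lgals12 (-5.36), Acvr1c (-4.11), Tusc5 (-3.97) and Aqp7 (-2.46). Adig was not called (-1.24, edgeR adjusted p 0.143). Without sham replicate 3, 3 of the 7 were lower at day 3 (list median -2.68), among them Lgals12 (-4.31), Tusc5 (-3.04) and Aqp7 (-2.07). At day 1, 3 of the 7 were lower, where 2.26% of all genes were, with a list median of -2.07, and 0 without sham replicate 3. The summed level of the 7 was 9.13 to 85.7 CPM at day 1, 11.8 to 36.4 CPM at day 3, 19.7 to 419 CPM at day 7 and 114 to 488 CPM in sham.

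Over the 18 libraries, the log2(CPM + 0.5) of each gene was correlated with the mean of the same value over the reference, 10 relations in all. Pearson's r was highest for Plin1, at 0.983 (Spearman's rho 0.955), then Retn at 0.971 (rho 0.961), Adipoq at 0.965 (rho 0.946), Adrb3 at 0.958 (rho 0.897), Cfd at 0.958 (rho 0.934), Hcar1 at 0.945 (rho 0.804), Pparg at 0.934 (rho 0.872) and Lep at 0.917 (rho 0.875). It was lowest for Fabp4, at 0.874 (rho 0.767), and Nnat, at 0.798 (rho 0.635). Every permutation p over 100000 resamples was 0.0053 or less, unadjusted for the 10 relations. The resamples shuffled libraries across groups, so a difference between groups alone can make these p-values small. Both sets of genes mark fat cells and were chosen with earlier results of these data known, so the p-values do not measure chance for them. Without the 2 libraries farthest from the median, sham replicate 3 and day 7 replicate 4, r was 0.975 for Plin1, 0.703 for Fabp4 and 0.68 for Nnat. With group means taken out, so that only differences between libraries of 1 group remain, r was 0.975 for Plin1, 0.842 for Fabp4 and 0.748 for Nnat. Within the 15 PHx libraries Nnat had r of 0.596 (permutation p 0.0478) but rho of 0.386 (permutation p 0.153), so no relation by rank was detected there. With group means taken out, the rho of Nnat over the 18 libraries was 0.738. Among the 10 genes themselves the 45 pairwise r ran from 0.705 to 0.994, with a median of 0.878.

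**Figure D3:**
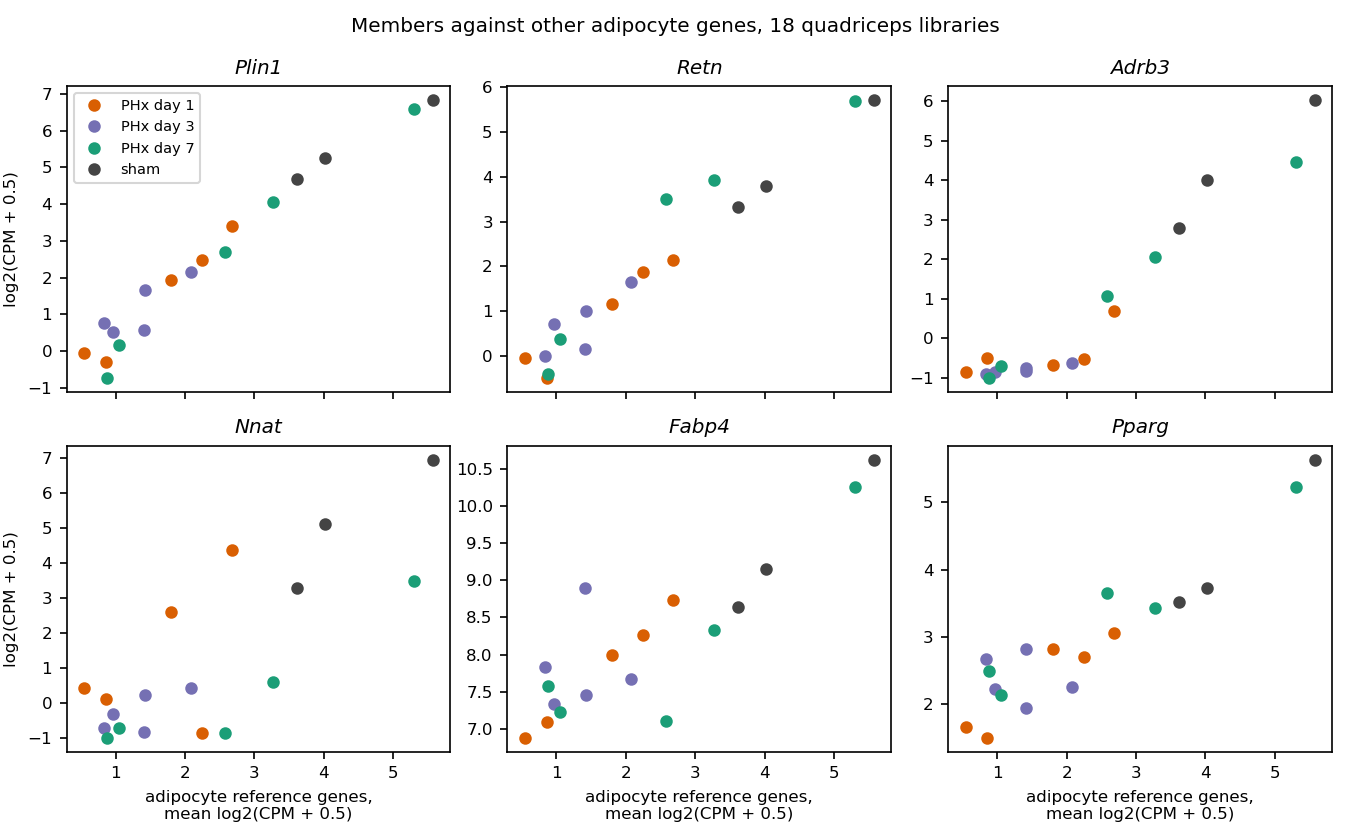
Level of 6 of the genes against the mean level of the 7 reference fat cell genes in the 18 quadriceps libraries, both as log2(CPM + 0.5), coloured by group. Plin1 and Retn rise along 1 line through all groups; Adrb3 lies flat near its lowest values in the libraries with least reference signal, and Nnat and Fabp4 scatter most, with r of 0.798 and 0.874.

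The genes most like the 10 were ranked by r with the mean of their standardised levels over the 18 libraries, among 13591 other genes, as a description. The top 10 were Ces1f (r 0.99), Nat8l (0.983), Slc1a5 (0.982), Lgals12 (0.981), Adora1 (0.98), Prkar2b (0.977), Smoc1 (0.977), Slc7a10 (0.976), Phgdh (0.976) and Cd1d1 (0.976). Adora1 is the adenosine receptor that restrains lipolysis, and Prkar2b is the regulatory subunit of protein kinase A that prevails in fat. Ces1f, a carboxylesterase, averaged 0.74 ± 0.377 CPM at day 3 and 22.5 ± 18.7 CPM in sham. All r values come from the same 18 libraries and are not independent. In all, 108 genes had r above 0.9, and of the reference Aqp7 ranked lowest (1612th, r 0.611).

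Each gene was next set against transcripts of other fat cell genes in the same library, a ratio that does not depend on library size. The reference genes are also read outside fat. Their sum was 1695 CPM in the liver of day 1 replicate 4, which had 0 reads of Adipoq, against 42.6, 66.3 and 43.9 CPM in sham livers. How much of their reads in quadriceps came from fat cells was not tested. Against the summed reads of the 7 reference genes, 7 of the 10 genes had every day 1 library on 1 side of all sham libraries, 9 of 10 at day 3 and 3 of 10 at day 7. Over all genes tested, libraries lay below all sham libraries for 0.154% at day 1, 0.199% at day 3 and 0.0956% at day 7, and above for 45.6%, 84.6% and 1.33%. At day 3 Adrb3 was 4.30 lower (log2), Hcar1 3.65, Nnat 3.51, Plin1 1.51, Adipoq 1.06, Cfd 0.81 and Retn 0.76 lower, and Fabp4 1.71 and Pparg 1.34 higher, each with an exact two-sided permutation p of 0.0357. That is the smallest p that 5 against 3 libraries allow (56 splits), and it is not adjusted for the 30 tests made. With Benjamini-Hochberg adjustment none of the 30 was under 0.05, and the smallest was 0.0564. A place above sham was thus common among all genes at days 1 and 3, and one below was not. The summed reference level was itself lower than in sham on these days, so a gene that changed little tends to lie above. The 10 genes were chosen with earlier results of these data known, so these shares do not measure chance for them. Among the reference genes Aqp7, which muscle also expresses, averaged 4.81 ± 2.66 CPM at day 3 and 26.3 ± 9.88 CPM in sham and was called lower (-2.46). Adig was the reference gene not called at day 3 (-1.24).

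A second denominator, the reads of Adipoq alone, divides the 9 others into 3 sets at day 3. Below all sham libraries were Adrb3 (-3.24), Nnat (-2.45) and Hcar1 (-2.59), as differences of mean log2((reads + 0.5)/(Adipoq reads + 0.5)), and above all sham libraries were Fabp4 (2.77) and Pparg (2.40), each with an exact permutation p of 0.0357, not adjusted for the 27 tests made. With Benjamini-Hochberg adjustment each p was 0.0964. Of all genes tested, 0.0294% lay below all sham libraries by reads per Adipoq read at day 3 and 91.2% above. Those below were these 3 genes and Scd1, a fatty acid desaturase (-1.79), while a place above sham was shared with most genes. Adipoq itself fell by 4.49 (log2) at day 3, so a gene that changed little lies above sham here. The 10 genes were chosen with earlier results of these data known, so the share below does not measure chance for them. At day 1 the shares were 0.00735% below, which was no member of the 10, and 61.5% above, which took in Fabp4 and Pparg. At day 7 they were 0.0147% below, Adrb3 and Nnat alone, and 1.12% above. On neither side of sham at day 3 were Retn (0.30), Cfd (0.24), Lep (-0.05) and Plin1 (-0.46), with exact permutation p of 0.214 to 1. The sum of Adipoq, Cidec, Plin1 and Lgals12 as denominator, chosen after the data were seen, gave the same 5 genes at day 3 in the same directions, with Adrb3 at -3.50, Hcar1 at -2.85, Nnat at -2.71, Fabp4 at 2.51 and Pparg at 2.14. By that measure 0.0368% of all genes lay below sham and 89.4% above, and those below were Adrb3, Hcar1, Nnat, Scd1 and Ucp1.

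Adrb3 had 6.90, 8.77, 10.9, 12.4 and 21.7 reads per 1000 Adipoq reads in the day 3 libraries, against 102.1, 160 and 188 in the sham libraries. Summed over libraries this was 8 reads of Adrb3 beside 742 of Adipoq at day 3, and 1978 beside 11462 in sham. At day 7 it had 67.0, 42.6, 0, 79.8 and 43.1 per 1000, against the same 102.1, 160 and 188 in sham. Every day 7 library was thus below every sham library, including replicate 4, in which Adipoq itself was within the sham range (difference in log2 -1.38, exact permutation p 0.0357, Benjamini-Hochberg adjusted 0.0964). In replicates 2 and 3 that ratio rests on 47 and 11 reads of Adipoq. At day 1 the ratio overlapped the sham range, since day 1 replicate 1 had 105 per 1000, from 4 reads beside 38. Hcar1 was tighter in sham, with 86.6, 88.1 and 93.4 per 1000 Adipoq reads, and had 0, 0, 39.9, 18.6 and 43.5 at day 3. At day 7 it had 59.0, 106, 0, 63.1 and 33.4, so the groups overlapped (difference in log2 -0.63, exact permutation p 0.143).

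**Figure D4:**
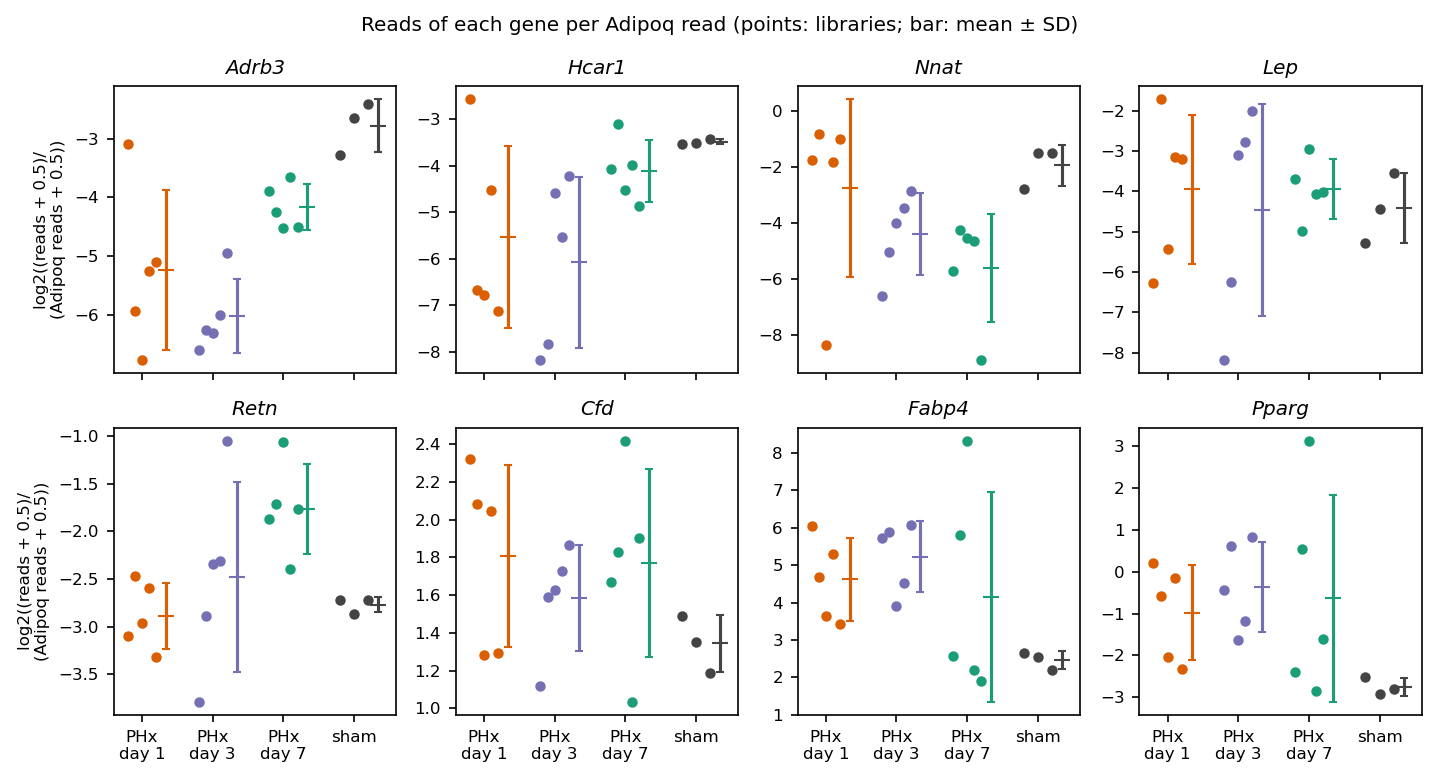
Reads of 8 genes per Adipoq read in each quadriceps library, as log2((reads + 0.5)/(Adipoq reads + 0.5)), by group; bars are the mean ± SD over 5 libraries for days 1, 3 and 7 and 3 for sham. At day 3 Adrb3, Hcar1 and Nnat lie below all sham libraries, Fabp4 and Pparg lie above them, and Lep, Retn and Cfd overlap them.

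Nnat had 18.5, 42.6, 0, 39.9 and 1.39 reads per 1000 Adipoq reads at day 7, against 144, 351 and 352 in sham (difference in log2 -3.67, exact permutation p 0.0357). It was lower there than at day 1, where 4 of 5 libraries had 281 to 566, within or above the sham range, and 1 had 2.03. Retn moved the other way at day 7, with 273, 298, 455, 191 and 293 reads per 1000 Adipoq reads, against 151, 137 and 151 in sham. All 5 day 7 libraries lay above all 3 sham libraries (difference in log2 1.01, exact permutation p 0.0357), while the day 1 and day 3 libraries lay on both sides of sham. In day 7 replicates 2 and 3 the Retn ratio rests on 14 and 5 reads, beside 47 and 11 of Adipoq. The Nnat ratio there rests on 2 and 0 reads. None of these p-values is adjusted, and each was 0.0964 after Benjamini-Hochberg adjustment. Pparg had 319 to 1783 reads per 1000 Adipoq reads at day 3, against 131 to 173 in sham.

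The reference level was also entered as a covariate in the edgeR fit. It differed between the groups itself, so this fit has little power and the coefficients of group and covariate are hard to separate. Adrb3 alone was then called at day 3, at -2.89 (edgeR adjusted p 0.0402), where 2.15% of all genes were called lower and 2.56% higher. Hcar1 stood at -2.06 (adjusted p 0.14) and Nnat at -0.87 (adjusted p 0.71). The 7 others turned positive, from 0.16 for Pparg to 1.92 for Lep, and none of the 7 was called (adjusted p 0.351 to 0.856).

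Fixed lists of related genes gave the setting at day 3, where 24.8% of all genes tested were called higher and 22.6% lower. Of 12 genes of the lipid droplet and lipolysis, 8 were lower and 2 higher (list median -1.74). Gpd1, which makes glycerol phosphate, was at -3.35, Aqp7 at -2.46 and Lipe, hormone-sensitive lipase, at -2.60, and Pnpla2, the lipase ATGL, which muscle fibres also make, rose by 2.05 (edgeR adjusted p 0.00279). Of 19 genes of lipogenesis and lipid uptake, 14 were lower and 1 higher (list median -2.03), and 9 were already lower at day 1. Fasn, fatty acid synthase, averaged 19.7 ± 6.97 CPM at day 3 and 1367.9 ± 920 CPM in sham and fell by 6.10. Elovl6, a fatty acid elongase, fell by 5.74, Thrsp, a regulator of lipogenesis, by 3.26, and Acly, ATP citrate lyase, by 3.15, with edgeR adjusted p of 0.000861 to 0.003 for these 4. Without sham replicate 3, 6 of 12 droplet genes and 9 of 19 lipogenesis genes were lower at day 3, and none of either list at day 1. Fasn stood at -5.35 in that fit and Elovl6 at -5.07, both called.

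The transcription factors of fat cell formation did not move as one, with 6 of 15 lower and 5 higher at day 3 (list median -0.19). Cebpa, which with Pparg maintains the mature fat cell, averaged 3.54 ± 1.004 CPM at day 3 and 32.8 ± 20.8 CPM in sham and fell by 3.20 (edgeR adjusted p 0.00184), and Zfp423, a preadipocyte factor, fell by 1.29. Cebpd and Cebpb, which act early in differentiation and are also induced by stress and glucocorticoids in many tissues, rose by 5.33 and 2.58 (edgeR adjusted p 0.00155 and 0.00132). Of 8 brown and beige fat genes 3 were lower (list median -1.13). Ucp1, the uncoupling protein of brown fat, averaged 0.0821 ± 0.0755 CPM at day 3 and 12.7 ± 7.46 CPM in sham and fell by 7.16, Otop1 fell by 5.03 and Prdm16 by 1.25, and Cidea stood at -2.06 without a call (edgeR adjusted p 0.074). Of 13 other adipokines and secreted products 3 were lower, Apln (-4.39), Rbp4 (-3.12) and Nrg4 (-2.79), and 2 were higher (list median 0.29). Without sham replicate 3, 5 of 15 transcription factors, 3 of 9 brown and beige genes and 1 of 13 secreted products were lower, and Nrg4 (-1.97) and Rbp4 (-1.76) lost their calls.

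Markers of other cell types of muscle were listed beside these, and their part in the change of the 10 genes was not tested. Of 11 genes of fibro-adipogenic progenitors and preadipocytes 6 were lower at day 3 (list median -1.09), among them Lum (-3.61), Pi16 (-3.38), Dpp4 (-2.53) and Cd34 (-1.09). Their summed level was 300 to 1212 CPM at day 3 and 669 to 770 CPM in sham, so the groups overlapped. Of 14 endothelial genes 3 were higher, Cldn5 (2.10), Pecam1 (0.94) and Esam (0.81), while Gpihbp1, the capillary anchor of lipoprotein lipase, was not called (1.15, edgeR adjusted p 0.052). Their sum was 383 to 633 CPM at day 3 and 337 to 458 CPM in sham (list median 0.39). Of 12 macrophage genes 2 were higher, Cd68 (4.0) and Mertk (0.93), with Fcgr1 (-1.36) and Mrc1 (-0.59) not called (list median 0.08). Of 10 genes of peripheral nerve and Schwann cells 2 were lower, S100b (-1.56), which fat cells also express, and Pmp22 (-1.09), and 1 was higher, Ncmap (1.85). Mag was not in the table and Gjb1 did not pass the filter.

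Of 15 muscle fibre genes 6 were lower at day 3, among them Tnnc2 (-1.12), Mylpf (-1.09), Ckm (-0.90) and Acta1 (-0.89), which are parts of the contractile machinery and its energy supply (list median -0.58). Of the 8 genes on the satellite cell list 2 were lower, Pax7 (-1.52) and Chodl (-0.99), with Myf5 not called (-0.73). The 1 that was higher, Musk (3.42), is the muscle-specific kinase of the neuromuscular junction and does not mark satellite cells alone. Of 4 skin and hair genes measured 1 was higher, Perp (5.22), with Dsp (1.70), Krt10 (-0.43) and Sbsn (-0.11) not called. Krt5, Krt14, Krt1, Lor and Krtdap of this list did not enter the test, and which cells the Perp reads came from was not tested. The single erythroid gene measured, Alas2, was not called (4.82 at day 1, edgeR adjusted p 0.0611). It averaged 44.3 ± 86.9 CPM at day 1 and 1.94 ± 0.684 CPM in sham. Of 11 genes that fasting and PPAR factors induce in muscle 8 were higher at day 3 (list median 1.09). Pdk4, the kinase that shuts off pyruvate dehydrogenase, averaged 8852 ± 3494 CPM at day 3 and 359 ± 40.6 CPM in sham and rose by 4.71, Acot1 and Acot2, thioesterases of fatty acyl-CoA, rose by 6.16 and 4.34, and Ucp3, a mitochondrial carrier, by 3.10, with edgeR adjusted p of 0.00147 to 0.00804 for these 4. Without sham replicate 3, 5 of the 11 were higher, these 4 among them. In that fit the calls of Esam (0.83, edgeR adjusted p 0.0521) and Pax7 (-1.61, edgeR adjusted p 0.0575) were lost, and the counts of the progenitor, macrophage, nerve, fibre and skin lists were the same.

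**Figure D5:**
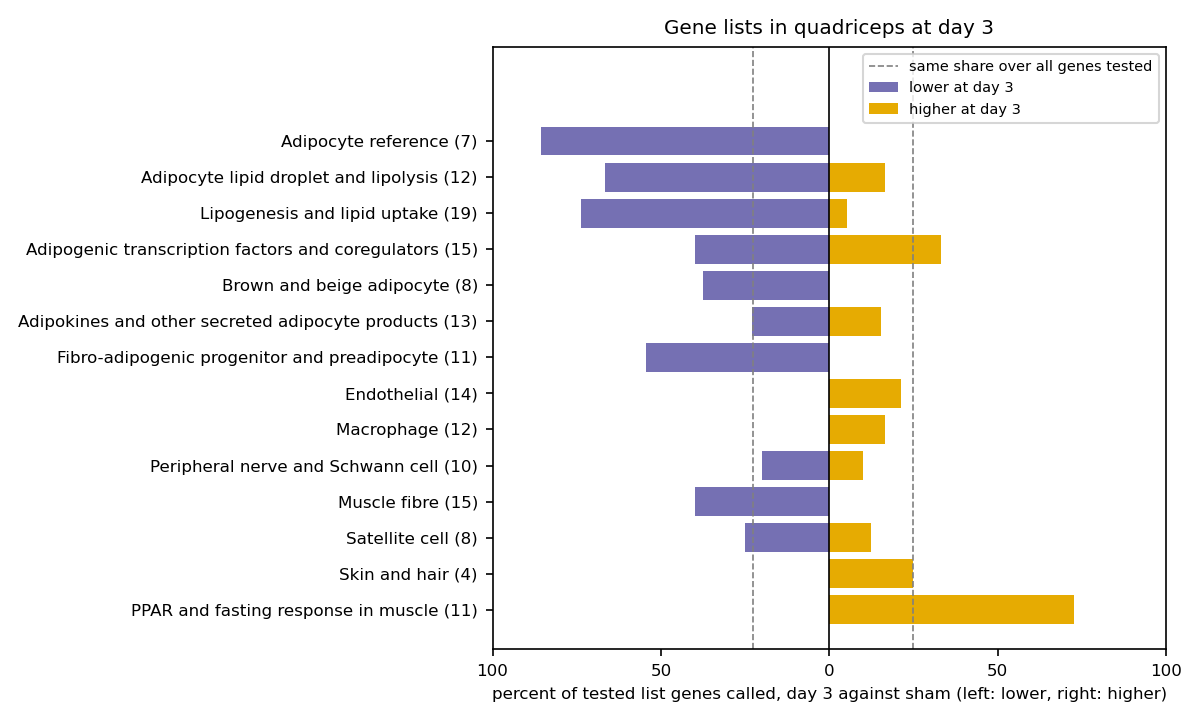
Percent of the measured genes of each fixed list that edgeR called lower (left) or higher (right) in quadriceps at day 3 against sham, with the number measured in brackets; dashed lines mark the same shares over all 13601 genes tested, 22.6% lower and 24.8% higher. The fat cell reference, lipid droplet and lipogenesis lists lie mostly to the left, and the fasting list of muscle to the right.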

How the data were processed

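The deposited table holds read counts per gene, which the authors left unnormalized, for 36 libraries, with a gene length and, for each PHx day against sham, the authors' deposited log2 fold change and FDR, an adjusted p-value. The submitters' processing notes name edgeR 3.40.2, Subread 2.0.3, featureCounts, STAR 2.7.10a, FastQC 0.11.5 and build mm10, with no roles. Their model is not given in the sources used here. Another 36 columns, each with values of a single sample, stayed out.

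All 18 quadriceps libraries were fitted together with edgeR 4.0.16 in R 4.3.3 (filterByExpr, TMM scaling, robust quasi-likelihood F test, Benjamini-Hochberg over the 13601 genes left, threshold 0.05); the SE is the size of the log2 fold change over the root of F. CPM are counts per 1000000 counted reads of a library, without TMM factors. Ratios added 0.5 reads to both terms and were compared by exact permutation over libraries (scipy). The code was checked on simulated counts. Depths of 15506197 to 29623890 reads make 1 read about 0.0338 to 0.0645 CPM, and limits from 0 reads cover counting error only. The p-values measure the spread between these libraries only.

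Named were the 10 genes, up to 4 genes of each list by smallest p at the day with most calls, and the 10 genes most like them; a few genes under this rule are not reported here. Single libraries and ratios discussed in detail were chosen after their values were seen. The 10 genes and the lists were chosen with earlier results of these data known. Alternatives were other scaling, no filter, DESeq2 1.42.0, only the 2 groups compared, a replicate block, the reference level as covariate, other denominators and leaving out each library in turn. The counts of the lists without sham replicate 3 were added after the data were seen.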

Additional observations from a re-analysis of the deposited data

Results flagged for a closer look

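In groups of 5 libraries, a library was marked where its gap to the nearest other library was large for the range of the group (Dixon's test at the 95% level). Chance does this in about 1 of 20 independent groups with a normal spread. The groups here share libraries and their genes move together, so the count cannot be set against that rate. Of the 60 groups tested, 15 held such a library. Of these, 9 are day 7 replicate 4, with 268 CPM of Adipoq, 21.4 CPM of Adrb3, 51.1 CPM of Retn, 95.3 CPM of Plin1, 16.0 CPM of Lep, 16.9 CPM of Hcar1, 10.7 CPM of Nnat, 1216 CPM of Fabp4 and 36.9 CPM of Pparg, each above the 4 other day 7 libraries. Day 1 replicate 5 was high for Adrb3 (1.12 CPM) and Nnat (19.9 CPM), day 3 replicate 3 for Hcar1 (0.538 CPM, from 11 reads) and day 3 replicate 1 for Fabp4 (475 CPM). On the scale of reads per 1000 reference reads, Adipoq was low in day 3 replicate 5 (145) and Cfd was low in day 1 replicate 1 (573).

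Also flagged were the 6 genes that edgeR called between day 7 and day 3, by 5.79 for Adrb3, 4.53 for Hcar1, 3.38 for Retn, 3.34 for Plin1, 3.07 for Adipoq and 2.78 for Cfd on the log2 scale. This repeats the day 7 against day 3 comparison given above, from which the sham level drops out. Without day 7 replicate 4 only Adrb3 was still called.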

How the results depend on the processing

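Of 617 alternative log2 changes for the days against sham and day 7 against day 3, 519 kept their sign and their side of the threshold, 55 lost a call, 11 gained one and 32 changed sign. Of 336 for days 3 and 7 against day 1, 308 kept both, 12 gained a call and 16 changed sign. Against sham, day 1 gave 6 calls with only the 2 groups compared, 5 with DESeq2 and 0 to 2 with a library left out, beside 2 in the full fit. Day 3 gave 6 to 10 with a library left out, beside 10, and day 7 gave 0 to 1, beside 0. Day 3 against day 1, with 0 in the full fit, gave 1 with only the 2 groups (8 genes tested), 1 with DESeq2 and 0 to 1 with a library left out. Day 7 against day 3 gave 1 with only the 2 groups, where Adrb3, Hcar1 and Nnat did not pass the filter and were not tested, so that 1 of the 4 calls tested there was kept, and 1 to 7 with a library left out, beside 6. Day 7 against day 1, with 0 in the full fit, gave 1 without composition scaling, 2 with DESeq2 and 0 to 3 with a library left out. The cause of these differences was not tested.

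Replicate numbers in the titles did not pair the samples: 3 of 24 same-numbered pairs had a correlation of deviations above 0.1 (mean -0.033, against 0.00835 for other pairs), and 1 of 18 libraries was most like one of its own number. With the replicate number as a block, day 7 against day 3 gave 3 calls, losing Adipoq, Cfd and Plin1, and day 3 against sham gave 9, losing Fabp4. The other counts were the same under the block, 2 at day 1 and 0 at day 7, and 0 for days 3 and 7 against day 1.

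With the reference level as covariate, which differs between the groups, the calls were 0 at day 1, 1 at day 3, 1 for day 3 against day 1, 0 for day 7 against day 3 and 1 for day 7 against day 1. The log2 changes that turned positive at day 1 were 1.15 for Adipoq, 0.53 for Retn, 0.97 for Cfd, 0.60 for Plin1, 2.57 for Lep, 1.89 for Nnat, 0.31 for Fabp4 and 0.0012 for Pparg. At day 3 they were 0.90 for Adipoq, 0.58 for Retn, 0.47 for Cfd, 0.58 for Plin1, 1.92 for Lep, 0.51 for Fabp4 and 0.16 for Pparg. At day 7 they were 0.21 for Adipoq, 0.88 for Retn, 0.24 for Cfd, 0.83 for Lep and 0.15 for Pparg. For day 7 against day 3 the changes turned negative for Adipoq (-0.69), Cfd (-0.23), Plin1 (-0.92), Lep (-1.09), Nnat (-2.74), Fabp4 (-0.73) and Pparg (-0.014). With a library left out, the uncalled day 7 changes ran from -2.02 to 0.28 for Retn, -2.98 to 0.37 for Lep and -1.71 to 0.080 for Pparg, the positive ends without sham replicate 3. Those for day 7 against day 3 ran from -0.48 to 2.82 for Nnat and -0.42 to 0.84 for Fabp4, the negative ends without day 7 replicate 4.

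Ratios depended on the denominator. Genes apart from sham numbered 7, 9 and 3 of 10 at days 1, 3 and 7 with the reference, 2, 5 and 3 of 9 with Adipoq, and 1, 5 and 3 of 8 with the 4-gene sum. Leaving out a library gave 7 to 8, 9 to 9 and 3 to 5 with the reference. Such a separation cannot be undone by leaving out a library, so these counts could only stay or rise and are no check of it. Differences that turned positive with Adipoq and with the 4-gene sum were those of Cfd at day 1 (0.46 and 0.20) and at day 7 (0.43 and 0.31), Lep at day 1 (0.46 and 0.20) and at day 7 (0.48 and 0.35), and Retn at day 3 (0.30 and 0.038) and at day 7 (1.01 and 0.89), with Cfd at day 3 positive with Adipoq alone (0.24). Without day 1 replicate 1 Lep at day 1 was 0.35, and without day 7 replicate 3 Retn at day 7 was 0.32. Depth limits most the genes with few reads at day 3, summed over 5 libraries: 8 for Adrb3, 16 for Hcar1, 41 for Nnat and 67 for Lep.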

Other observations

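The liver libraries show which of these genes are read outside fat. Adipoq had 0 to 17 reads in the 15 PHx livers and 5, 480 and 2 in the sham livers, so 1 sham liver, replicate 2, stood apart. That liver had 34.6 CPM of Cfd, 5.72 CPM of Plin1 and 2.44 CPM of Retn, against 2.29 CPM or less, 0 CPM and 0.037 CPM or less in the other sham livers. Fabp4 had 9.06 to 96.1 CPM in PHx livers, against 6.40, 107 and 3.59 CPM in sham livers. Pparg had 7.66 to 16.3 CPM in PHx livers, against 17.9, 16.1 and 23.7 CPM in sham livers, and Adrb3 had 0.0449 to 3.98 CPM, against 2.83, 5.98 and 1.48 CPM, so reads of Fabp4, Pparg and Adrb3 also came from livers almost without Adipoq. Lep and Hcar1 stayed at or below 0.177 CPM in the PHx livers. The summed level of the reference genes was 65.6 to 1695 CPM in PHx livers, against 42.6, 66.3 and 43.9 CPM in sham livers.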
